A study of Mus musculus with 2 samples.

Results

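The MHC class I presentation genes examined here are H2-K1, H2-D1, B2m, Tap1, Tap2, Tapbp, H2-T23 and H2-M3. They were chosen by gene symbol, and all 8 of 8 symbols were found among the 23284 genes measured. The RNA came from macrophages of infarcted hearts of C57BL/6 mice, collected on day 3 after the left anterior descending coronary artery had been ligated, and was sequenced as a single library for each of the Ly6Chi and the Ly6Clo populations. Ly6C, the antigen of the sort, is abundant on classical blood monocytes and on their recent progeny in tissue. Both populations came from infarcted tissue, so neither is an uninjured control, and whether animals were pooled is not stated in the labels. The values reported are the authors' signed statistic, a score without a stated unit that compares the libraries, and its rank by size. The score may be weighted by expression, so values near 0 of weakly expressed genes do not show that their levels were alike. The per-library columns carry codes that match no sample label and were not used, so neither sign could be assigned to a population, and depth and levels were not analysed here. Sides are therefore called positive and negative. Ly6c2 and its paralog Ly6c1, which encode the sorted antigen, both lay on the negative side, at -1.78 and -0.53 in the authors' deposited table. Replication is absent, so no p-value is given.

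MHC class I molecules display peptides from inside the cell to CD8 T cells and to receptors of natural killer cells. A polymorphic heavy chain pairs with the light chain β2-microglobulin, and the pair is loaded in the endoplasmic reticulum with peptides that the proteasome has cut and the TAP transporter has pumped in, while tapasin holds the empty molecule at the transporter. Almost all nucleated cells carry class I, whereas class II, which presents peptides from endocytosed material to CD4 T cells, is mainly a product of professional antigen-presenting cells. In monocytes and macrophages, interferons and the transactivator NLRC5 raise class I genes, and CIITA drives class II genes.

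The promoters of several of these genes hold a shared sequence arrangement, shown here because the genes that carry it stood on both sides of the statistic. Windows of 300 bases, 250 before and 50 after the annotated start, were found in RefSeq (GRCm38.p6) for 7 of the 8 genes, all but Tap2. TGACG, the core of the cyclic AMP response element, was followed after exactly 20 bases by ATTGG, the reverse of the CCAAT box bound by NF-Y, in 4 of the 7, namely H2-K1, H2-D1, H2-M3 and B2m. Both strands were searched over all RefSeq windows, and 27 of 27025 genes (0.0999%) held the pair at that spacing. With any spacing from 15 to 25 bases it was found in the same 4 of these 7 genes and in 132 of 27025 genes (0.488%). The spacing was noted after the promoters had been read, so these shares are descriptions. The 30 bases lie at chr17:34000359-34000388 on the minus strand for H2-K1, at chr17:35262993-35263022 on the plus strand for H2-D1, at chr17:37270188-37270217 on the plus strand for H2-M3 and at chr2:122147609-122147638 on the plus strand for B2m. They read as follows, with both motifs in capitals.
H2-K1: TGACGcgcagtcagctcttacccccATTGG
H2-D1: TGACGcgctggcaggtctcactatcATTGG
H2-M3: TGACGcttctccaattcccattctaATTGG
B2m: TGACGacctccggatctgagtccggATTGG

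Between the motifs, H2-K1 and H2-D1 had the same base at 13 of 20 positions, H2-K1 and H2-M3 at 7, and H2-K1 and B2m at 3. The stretch between the motifs was therefore least alike between a heavy chain gene and the light chain gene among these pairs. The RefSeq span of H2-K1 reaches upstream to 34000619, so its windows, taken from 2 start sites annotated inside that span, lie within the gene. The 250 bases before the start are given for H2-M3 and B2m, a heavy chain gene on the positive side and the light chain gene on the negative side. They lie at chr17:37269984-37270233 (plus strand) and chr2:122147437-122147686 (plus strand) on GRCm38.p6. Capitals mark matches to the motifs searched.
H2-M3: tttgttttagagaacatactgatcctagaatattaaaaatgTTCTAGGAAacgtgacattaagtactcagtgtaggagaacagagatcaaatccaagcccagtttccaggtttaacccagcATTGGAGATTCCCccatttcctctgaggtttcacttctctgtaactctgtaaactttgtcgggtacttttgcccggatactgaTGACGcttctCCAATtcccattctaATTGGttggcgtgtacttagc
B2m: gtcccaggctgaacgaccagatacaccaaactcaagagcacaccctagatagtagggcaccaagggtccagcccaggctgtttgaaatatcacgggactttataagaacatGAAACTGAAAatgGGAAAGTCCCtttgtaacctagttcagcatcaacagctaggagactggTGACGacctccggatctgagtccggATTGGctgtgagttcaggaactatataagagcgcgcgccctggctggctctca

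Of the motifs searched on both strands, CCAAT was found in 7 of 7 windows of these genes, against 41.1% of all genes with a window. TGACG was found in 5 of 7, against 23%. The NF-kB motif was found in 4 of 7 (H2-K1, H2-D1, H2-M3 and B2m), against 5.14%. In H2-K1 and H2-D1 it read GGGGATTCCC, overlapping a second match shifted by 1 base, and in B2m it read GGAAAGTCCC. The interferon-stimulated response element, searched as GAAA, any 2 bases and GAAA, was found in 2 of 7 (B2m and H2-T23), against 3.99%, and the gamma-activated site TTCNNNGAA in 1 of 7 (H2-M3), against 9.55%. These are matches of letters, and a missing match says only that those letters are not in the window.

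None of the 8 genes stood far from 0. In the authors' deposited table the order was Tap1, H2-K1, H2-M3, Tap2, Tapbp, H2-T23, H2-D1 and B2m. The first 4 were positive, the last 4 negative, and the median statistic was -0.01. No gene reached a size of 0.5 on either side, where 3.77% of all genes were at 0.5 or more and 0.988% at -0.5 or below. At 4.76% for both sides together, a count of 0 among 8 genes is near that background. Over all 23284 genes the median was 0, and 40.4% were positive and 29.6% negative. The positive share and the genes other than 0 both include values that are above 0 but round to 0. The median size of the 8 genes was 0.0991, beside 0.110 for the 16302 genes with a statistic other than 0. In bulk RNA, fewer cells of a type and less RNA per cell cannot be told apart.

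**Figure D1:**
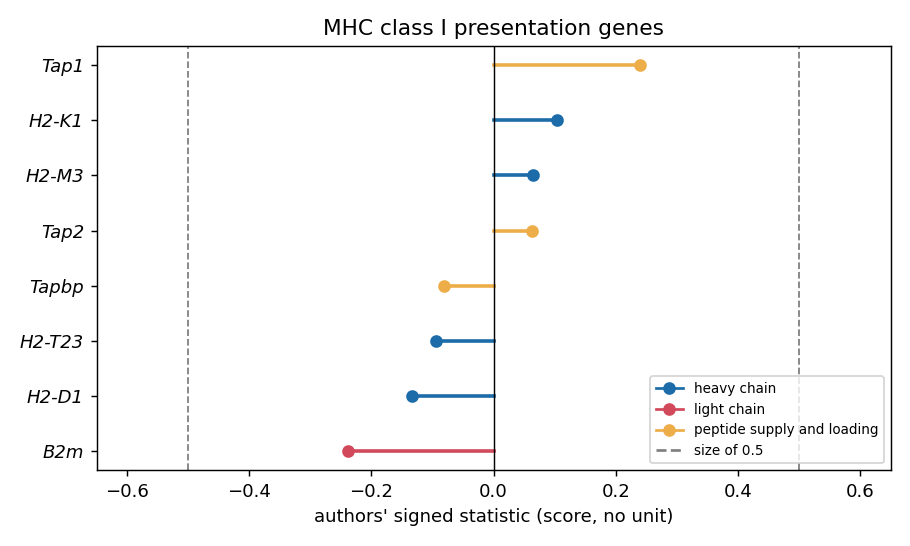
Authors' signed statistic (score without a unit, horizontal axis) of each MHC class I presentation gene, coloured by role, with dashed lines at a size of 0.5. Values run from 0.24 for Tap1 at the top to -0.24 for B2m at the bottom, and all 8 lie inside the dashed lines.

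The heavy chains lay on both sides. H2-K1 encodes the classical heavy chain K, which presents peptides to CD8 T cells. It lies on chromosome 17 from 33996012 to 34000619 on the minus strand and stood at 0.10 in the authors' deposited table (rank 8443). H2-D1 encodes the other classical heavy chain of C57BL/6 mice, lies 1262.5 kb away from 35263094 to 35267497 on the plus strand, and stood at -0.13 in the authors' deposited table (rank 6964). The classical heavy chain genes thus had opposite signs, each with a size under 0.25. H2-T23 encodes Qa-1, a non-classical molecule that shows leader peptides of other class I chains to the CD94/NKG2A receptor. It lies from 36029977 to 36032701 on the minus strand and stood at -0.09 in the authors' deposited table (rank 8864). H2-M3 encodes a non-classical molecule that presents N-formylated peptides of bacterial and mitochondrial origin, lies from 37270234 to 37274485 on the plus strand, and stood at 0.06 in the authors' deposited table (rank 10840). Of the 4 heavy chain genes, H2-D1 was furthest from 0 and H2-M3 nearest.

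B2m, which encodes the light chain shared by these heavy chains, lies apart from the H2 complex on chromosome 2 from 122147687 to 122153082 on the plus strand. Its value of -0.24 in the authors' deposited table (rank 3627) was the lowest of the 8 genes, and 15.6% of all genes were larger in size. B2m and H2-D1 were the genes of the complete molecule furthest to the negative side, while H2-K1 was positive.

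Genes of peptide supply and loading gave the other extreme. Tap1 and Tap2 encode the subunits of the transporter that carries peptides into the endoplasmic reticulum. Tap1 lies on chromosome 17 from 34187556 to 34197225 on the plus strand and stood at 0.24 in the authors' deposited table (rank 3586), the highest of the 8 genes, with 15.4% of all genes larger in size. Tap2, from 34204479 to 34216321 on the plus strand, stood at 0.06 in the authors' deposited table (rank 10973). Both transporter genes were positive. Tapbp encodes tapasin, which bridges empty class I molecules to the transporter. It lies from 33919478 to 33929290 on the plus strand and stood at -0.08 in the authors' deposited table (rank 9613).

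**Figure D2:**
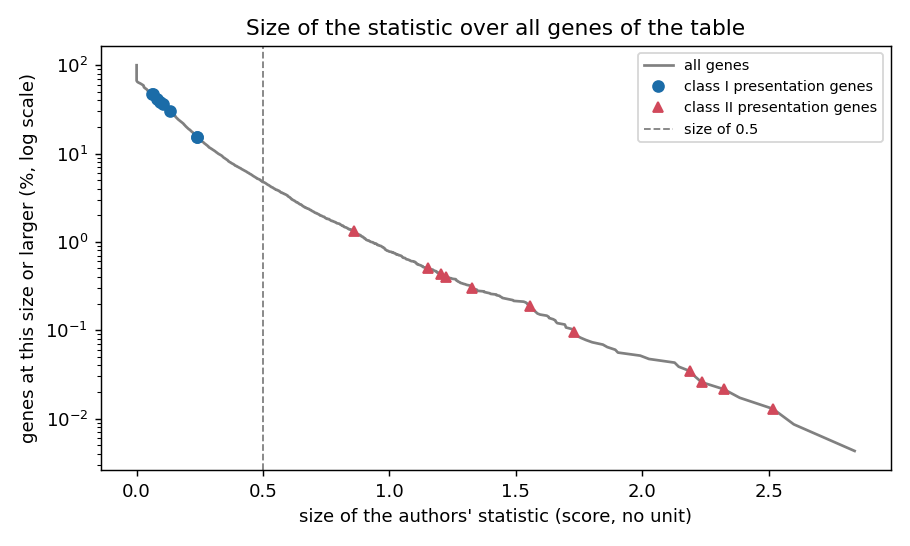
Percentage of all genes (vertical axis, log scale) that reach a given size of the authors' statistic (horizontal axis, score without a unit), with class I presentation genes as circles and class II presentation genes as triangles. The class I genes sit between sizes 0.06 and 0.24 and the class II genes between 0.86 and 2.52, to the right of the dashed line at 0.5.

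Some of these values rest on sequence that other genes share. From the GENCODE M21 coding sequences, the share of distinct stretches of 50 bases that also occur, on either strand, in transcripts of another gene was 29.6% for H2-T23, 22.3% for H2-D1, 9.74% for H2-K1 and 0.834% for H2-M3. It was 20.8% for Tap2, of which the largest part (16.3% of its stretches) occurs in Gm15821, a non-coding RNA annotated on the opposite strand at Tap2. For Tapbp the share was 15.9%, all of it in Gm19412, annotated as antisense to Tapbp. Tap1 shared 1.13% and B2m 0 of 308 stretches. The labels do not state how reads that fit several genes, or overlapping genes on opposite strands, were counted. The statistics of H2-T23, H2-D1, H2-K1, Tap2 and Tapbp are uncertain to that extent. The longest run common to the coding sequences of H2-K1 and H2-D1, taken from the longest coding transcript of each, was 91 bases, at positions 738 to 828 of 1107 in H2-K1 and 747 to 837 of 1086 in H2-D1, counted from the start codon. It is shown because a read that falls inside it does not tell these genes apart, and it also occurs in H2-Q1, H2-Q6 and H2-Q7.
H2-K1 and H2-D1: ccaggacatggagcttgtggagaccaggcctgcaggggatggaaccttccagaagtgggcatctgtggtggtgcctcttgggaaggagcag

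Position set Tap1 and Tap2 among genes with far larger values. Tap1, Tap2 and the immunoproteasome genes Psmb9 and Psmb8 are the 4 genes of the table in the 78.7 kb between H2-DMb1 and H2-Ob. Their statistics in the authors' deposited table were 0.24 for Tap1, 0.06 for Tap2, 0.16 for Psmb9 and 0.09 for Psmb8, so all 4 were positive and none reached 0.25. Tap1 and Psmb9 are transcribed away from each other from RefSeq starts separated by 225 bases. The class II genes on either side of this block were 1.15 for H2-DMb1 and 1.20 for H2-Ob in the authors' deposited table. Across the stretch from H2-DMa to H2-Eb2, 8 of 12 genes of the table belong to the class II list, with statistics from 0.86 to 2.52, and the other 4 are these genes.

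**Figure D3:**
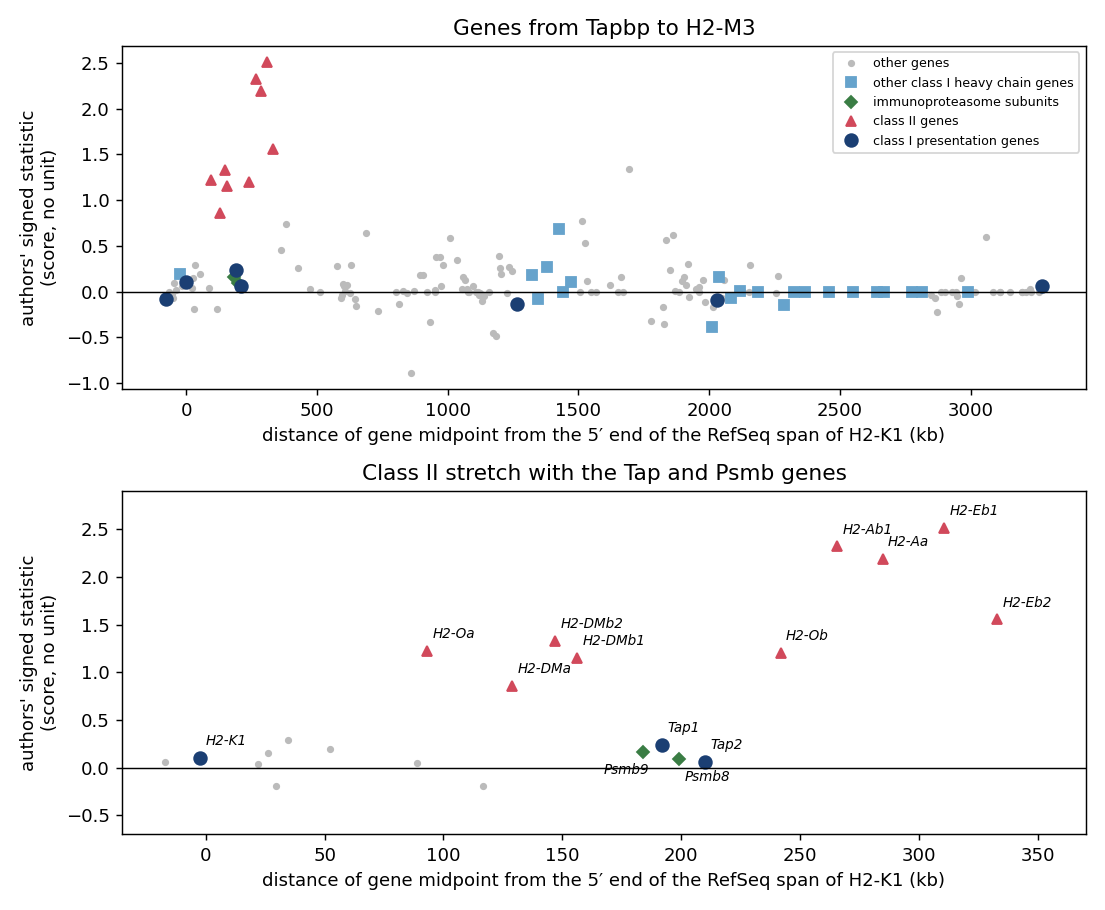
Authors' signed statistic (score without a unit, vertical axis) of genes on chromosome 17 against the distance of the gene midpoint from the 5′ end of the RefSeq span of H2-K1 (kb), from Tapbp to H2-M3 in the upper panel and over the class II stretch in the lower panel. Tap1, Tap2, Psmb8 and Psmb9 lie between 0.06 and 0.24, and the class II genes around them between 0.86 and 2.52.

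Class I and class II presentation genes were set side by side without a test, since 1 library per population allows none. Of the class I genes, 0 of 8 were at 0.5 or more, with a median statistic of -0.01, and of the class II genes 11 of 11 were, with a median of 1.55. Over all genes, 3.77% were at 0.5 or more and 0.988% at -0.5 or below. The class II genes furthest from 0 were H2-Eb1 at 2.52, H2-Ab1 at 2.32, the invariant chain gene Cd74 at 2.24 and H2-Aa at 2.19 in the authors' deposited table. Nlrc5, which encodes the transactivator of class I genes, had -0.02 in the authors' deposited table. Ciita, which encodes that of class II genes and is itself among the 11, had 1.73 in the authors' deposited table. Dendritic cell markers lay on the positive side with the class II genes, with 8 of 8 positive, 5 of 8 at 0.5 or more and a range from 0.24 to 2.84, led by Ccr7 and by Cd209a at 1.66 in the authors' deposited table. The class I genes lay within 0.24 of 0, and the part of such cells in the class II values was not tested. Of the 8 macrophage markers, 7 were negative and 4 were at -0.5 or below, with a range from -0.79 to 0.25, led by Fcgr1 at -0.79 in the authors' deposited table. Whether any marker was absent from a library was not analysed here.

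No gene of the proteasome and peptide trimming lists reached a size of 0.5 either, where 4.76% of all genes did. Of 6 genes of the immunoproteasome, whose subunits shape peptides for class I, 0 reached a size of 0.5, and Psmb9 at 0.16 and the assembly factor gene Pomp at -0.11 were the largest in the authors' deposited table. All 5 genes of the constitutive proteasome list were negative, none at -0.5, with a median of -0.19. That list also holds the activator genes Psme3 and Psme4, and the median is the value of Psme4. Psmb6 and Psmb5, which encode catalytic subunits, had -0.30 and -0.23 in the authors' deposited table. Peptide trimming genes were 3 positive and 6 negative of 9, with a median of -0.06, and the aminopeptidase genes Lap3 and Npepps had -0.27 and -0.21 in the authors' deposited table. Erap1, which encodes the aminopeptidase that trims peptides inside the endoplasmic reticulum, had -0.03 in the authors' deposited table. All 9 stayed under a size of 0.5.

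Folding factors were mostly negative. Of 8 genes for peptide loading and class I folding, 7 were negative and 1 positive, where 29.6% of all genes were negative and 40.4% positive. None reached a size of 0.5, and the median was -0.18. Hspa5, the general chaperone of the endoplasmic reticulum, had -0.47 and Calr, which encodes calreticulin of the loading complex, had -0.45 in the authors' deposited table. Pdia3, the disulfide isomerase that is bound to tapasin in that complex, had -0.31, Canx, which encodes calnexin, had -0.23 and Tapbpl, which encodes the tapasin-related peptide editor, had -0.06 in the authors' deposited table. Of 10 genes listed for class I ubiquitination and turnover, 6 were matched. The ubiquitin ligase genes March1, March4, March8 and March9 were not, so ubiquitination of class I was not covered. The 6 matched genes were also all negative, with a median of -0.14 and none at -0.5. Among them, the retrotranslocation genes Derl1 and Vcp had -0.25 and -0.23 in the authors' deposited table.

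Each of the lists of regulators and of receptors and kinases held 1 gene at 0.5 or more, where 3.77% of all genes were, and counts this small do not set these lists apart. The 14 transcriptional regulators of class I genes held 9 positive and 5 negative values around a median of 0.09, and 1 reached 0.5, the NF-kB precursor gene Nfkb1 at 0.57 in the authors' deposited table. Irf1, a factor that binds interferon response elements of class I genes, had 0.40 in the authors' deposited table. Of 7 genes of interferon receptors and their kinases, 5 were positive, with a median of 0.13, and 1 reached 0.5, the kinase gene Jak2 at 0.60 in the authors' deposited table. Interferon-stimulated genes were 17 negative and 8 positive of 25, with a median of -0.16, where 29.6% of all genes were negative. At -0.5 or below there were 4, against 0.988% of all genes. These were Rsad2 at -0.72, Oasl1 at -0.69, Irf7 at -0.62 and Isg15 at -0.52 in the authors' deposited table. None of the 8 positive genes reached 0.5, and Gbp5 at 0.47 and Cxcl10 at 0.46 were the largest of them. The class I genes, which interferons also raise, held no value beyond -0.24.

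**Figure D4:**
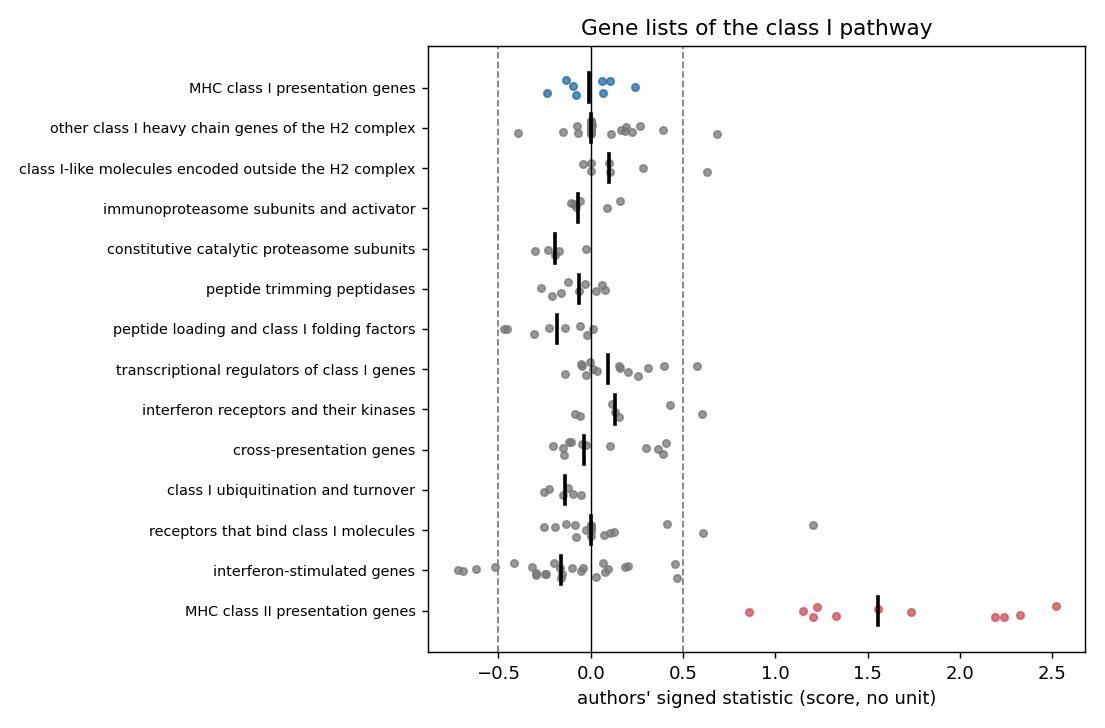
Authors' signed statistic (score without a unit, horizontal axis) of genes in each list of the class I pathway, 1 point per gene, with the list median as a black bar and dashed lines at a size of 0.5. The class I presentation genes centre on -0.01 and the class II presentation genes on 1.55.

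Relatives of the class I heavy chains were mostly small or listed at 0. The positive counts below include H2-T3, Cd1d2, Cd8b1 and Klrb1c, whose values are above 0 but round to 0. Of 26 matched heavy chain genes of the H2 complex beyond the 4 above, 10 had positive values, 4 negative values and 12 exactly 0, and the median was 0. A size of 0.5 was reached by 1 of them, against 4.76% of all genes, namely H2-Q6 at 0.68 in the authors' deposited table. H2-Q6 shares 36.9% of its 50-base coding stretches with other genes, most with H2-Q7, so its value is uncertain. Of 7 class I-like genes outside the H2 complex, 5 were positive, 1 negative and 1 exactly 0, and Fcgrt, which encodes the neonatal Fc receptor that also pairs with the light chain, was at 0.63 in the authors' deposited table. Among 19 genes listed as receptors of class I molecules, 7 were positive, 6 negative and 6 exactly 0. Klrd1, which encodes CD94 of the Qa-1 receptor on natural killer cells, had 1.20 and Lilra5 had 0.61 in the authors' deposited table. Binding of class I by each listed gene was not checked, and Lilra5 is not taken here as an established class I receptor. T and NK cell markers did not reach 0.5, with 3 positive, 1 negative and 3 exactly 0 of 7 matched, and Cd4 at 0.22 and Cd8a at 0.11 led them in the authors' deposited table. Of 12 cross-presentation genes, which route engulfed antigen to class I, 5 lay above and 7 below 0, the median was -0.03 against a mean of opposite sign at 0.06, and none reached a size of 0.5. The largest were Cybb, the phagosomal oxidase gene, at 0.41 and Rab27a at 0.39 in the authors' deposited table.

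Markers of the remaining cell types were placed as follows. Over all genes, 40.4% were positive, 29.6% negative, 3.77% at 0.5 or more and 0.988% at -0.5 or below. All 8 fibroblast markers were positive and 7 were at 0.5 or more, from 0.22 to 2.14, led by Col1a1 and by Col3a1 at 2.03 in the authors' deposited table. All 8 cardiomyocyte markers were positive, from 0.10 to 0.53, led by Tnnt2 and by Actc1 at 0.27 in the authors' deposited table. Endothelial markers were 6 negative and 2 positive of 8, from -0.57 to 0.07, led by Kdr and by Cdh5 at -0.46 in the authors' deposited table. Of 7 matched neutrophil markers, 5 were positive, and Mmp8 at -1.0 and S100a8 at 0.54 led them in the authors' deposited table. Of 5 matched B cell markers, none reached a size of 0.5, and Cd79b at -0.24 and Cd79a at 0.20 led them in the authors' deposited table. Nearly all of these cell types express class I genes, and their part in the class I values was not tested.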

How the data were processed

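RNA sequencing libraries of Ly6Chi and Ly6Clo macrophages, 1 each, were analysed. The submitters' processing notes list TopHat, CASAVA 1.8.2 and build mm10. No label or header names the counting program, the annotation or the strand handling. The authors deposited a signed score per gene, named a statistic in the file header, and its rank. The rank recomputed from the size of the score matched within 1e-06 for 23284 of 23284 genes. Its scale is not stated, so no fold change was derived from it. The deposited table's name holds the letters WAD, the short form of weighted average difference, which would give genes of low abundance small scores; no label says that this was used. Sizes of genes that differ in abundance are therefore compared as scores only.

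The 2 per-library columns of values were not used, because their codes match no label, so the planned levels per library were not computed. Members and 22 lists were chosen with earlier results of these data known, and 222 of 232 list entries were matched by symbol, 4 of them by an older symbol. Genes were counted past a size of 0.5, which has no error rate. Named genes were the members, list genes at a size of 0.5 or more (at most 4, or the 2 largest where there was none) and up to 2 per cell type list. Nlrc5, Ciita, Irf1, Erap1, Pdia3, Canx, Tapbpl, Psmb8, H2-DMa, H2-DMb1, H2-Ob, H2-Eb2 and the genes of the closing section beyond that rule were named after their values were seen. So were Gbp5, Cxcl10, Psme3, Psme4, H2-T3, Cd1d2, Cd8b1 and Klrb1c. For 1 gene within the rule the value is not reported here. No gene was named for likeness of pattern, since there is 1 comparison. Coordinates and promoters are from RefSeq GRCm38.p6, the assembly of mm10, and coding sequences from GENCODE M21. Promoter motifs and stretches of 50 bases were searched by exact match, and the computations were tested on simulated data. Alternatives were thresholds of 0.25 and 1, genes other than 0 as background, means, lists without values at 0, the members without heavy chains and, chosen after seeing the data, stretches of 100 bases. Protein sequences were not used here. Computations used Matplotlib 3.10.9, SciPy 1.17.1, pandas 2.3.3 and NumPy 2.4.6 under Python 3.11.15.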

Additional observations from a re-analysis of the deposited data

How the results depend on the processing

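No paired analysis was possible because only 1 library per population exists here, and for the same reason no library could be left out. Alternatives of scaling and pseudocount, which rest on per-library values, were not run. The count of class I presentation genes past the threshold was 0 on both sides at 0.25, 0.5 and 1. Over all genes, a threshold of 0.25 gave 2306 positive and 1085 negative genes and a threshold of 1 gave 165 and 15, beside 878 and 230 at 0.5. The median of the 8 genes was -0.01, their mean was also -0.01, and without the 4 heavy chain genes the median was -0.01. The 95% binomial interval of a median is the whole range for the 15 lists of up to 8 genes, so it checks nothing there. Of the 7 longer lists, all 7 had means inside it. Over the 22 lists the mean minus the median ran from -0.0995 to 0.11, and 5 means differed from their median in sign or left 0. Leaving out values at 0 could move only the 4 lists that hold any, and of these the other heavy chain genes of the H2 complex moved beyond their interval, to 0.14 in place of 0. With stretches of 100 bases, the shared part of the coding sequence was 9.75% for Tapbp, 8.92% for Tap2, 8.18% for H2-D1, 6.28% for H2-T23 and 0 for H2-K1, H2-M3, Tap1 and B2m. The labels give no read length.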

Other observations

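The H2-Q genes encode non-classical class I chains, among them the Qa-2 antigens. In the authors' deposited table, H2-Q6 had 0.68, H2-Q8 0.39 and H2-Q4 0.27, while H2-Q7 and H2-Q9 were listed at exactly 0. Of the 50-base coding stretches of H2-Q7, 48.8% occur in transcripts of other genes, most often H2-Q6. How such reads were assigned is not stated in the labels, so the zeros of H2-Q7 and H2-Q9 are not read as absence of expression. H2-T24, a gene beside H2-T23, had -0.39 in the authors' deposited table and shares 2.51% of its stretches.

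From Tapbp to H2-M3, over 3355 kb of chromosome 17, the table holds 174 genes. Of these, 19 were at 0.5 or more and 1 was at -0.5 or below, where 3.77% and 0.988% of all genes were. The class II genes of that stretch made up 9 of the 19 and H2-Q6 another. Outside both families, the collagen receptor gene Ddr1 had 1.35 and the complement factor B gene Cfb had -0.89 in the authors' deposited table.

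The arrangement of TGACG, 20 bases and ATTGG was present in promoters of 27 genes, of which 24 have a value in the table. Their statistics ran from -0.24 to 0.26, with a median of -0.02, and 0 of the 24 reached a size of 0.5, where 4.76% of all genes did. A count of 0 among 24 genes is near that background. The 24 include H2-K1, H2-D1, H2-M3 and B2m, in which the arrangement was first noted. Trim26, a gene of the same part of chromosome 17, had -0.04 and Nasp had -0.22 in the authors' deposited table. Among 8 class II genes with a window, 0 held this spacing, against 0.0999% of all genes with a window. A spacing between 15 and 25 bases was held by 1, H2-Aa, against 0.488%. The letters and spacing were noted in the class I promoters, and so few genes hold them that a count of 0 does not set class II promoters apart.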
